A study of Mus musculus with 6 samples.

Results

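Liver-type secreted and metabolic genes are genes whose RNA is known mainly from hepatocytes, the main cells of the liver. The set described here holds 47 of the 35122 genes of the deposited table: albumin, 5 apolipoproteins and the fatty acid binding protein gene Fabp1, 7 plasma carriers and fetuins, 6 clotting genes, 7 serpins, 5 enzymes and 15 major urinary protein (Mup) genes. All 47 were found in the table by their gene symbols. They were picked because many of them were near absent in the knockout, so their difference between the groups is what chose them and is given as a description, without a test.

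RNA was sequenced from the adipocyte fraction of epididymal fat pads of 6 male C57BL/6 mice fed chow, with 1 library per mouse. The 3 control mice had the genotype PU.1 fl/fl, in which an exon of Spi1, the gene of the transcription factor PU.1, lies between loxP sites. The 3 aPU.1KO mice (AdipoqCre_PU.1 fl/fl) carried the same floxed alleles together with a Cre transgene driven by the adiponectin promoter and enhancer, which are active in fat cells. Ages were labelled as 10 to 11 months in both groups, and the study's text describes the sequenced mice as older than that. No Cre-positive mouse without the floxed alleles was among the 6, so the transgene and the loss of the exon cannot be told apart. The fraction was the floating layer after collagenase digestion, and cells that cling to fat cells can come with it. Mice are numbered 1 to 3 within each group, following the numbers in the labels.

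In the liver, hepatocytes make most of the proteins of blood plasma: albumin, the apolipoproteins that coat lipid particles, fibrinogen and prothrombin for clotting, antiproteases of the serpin family, and carriers of hormones, vitamins, haem and haemoglobin. They also hold the urea cycle and the main routes of amino acid breakdown. In male mice the liver secretes major urinary proteins, small lipocalins that carry pheromones into the urine. Such genes are known to be switched on in hepatocytes by factors of the HNF1, HNF4, FOXA and C/EBP families. Haptoglobin (Hp) and argininosuccinate synthase (Ass1) are also known as genes of fat cells.

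Counts summed to between 20550252 and 69283842 per library, control mouse 1 being far deeper than the other 5 libraries. Spi1 lay at 24.3, 6.35 and 26.7 CPM (counts scaled to library size by TMM) in the control mice and at 3.20, 1.22 and 4.17 CPM in aPU.1KO mice. Its counts are per gene and include exons outside the floxed one. The 13 adipocyte markers, Adipoq and Lpl among them, summed to between 48530 and 52550 CPM in control and between 58520 and 67240 CPM in aPU.1KO mice, so that these markers were abundant in every library. Of the 13, 11 were higher in every aPU.1KO mouse, beside 12.4% of all genes with a count, with a median log2 fold change of 0.34, and edgeR called 0 (9 higher and 1 lower at a p under 0.05 before adjustment) and DESeq2 called 8 higher, where it called 3.51% of all genes higher. Over all genes edgeR's quasi-likelihood test called 33 of 13925 (0.237%) at an adjusted p under 0.05, and 25 of these (0.18%) were lower in aPU.1KO mice.

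Promoter sequences were available for 36 of the 47 genes, 38 promoters in all, each spanning 250 bases before to 50 bases after the RefSeq start (GRCm38.p6). The 5 sequences below are the 150 bases just before the start of albumin, of 3 genes that were at or near 0 counts in the aPU.1KO mice, and of the Mup gene with the highest level in control mice. They are shown to let the proximal control regions of genes with high and low remaining levels be read side by side. Capitals mark matches to the C/EBP motif TTGCNNAA or the HNF1 motif GTTAATNAT on either strand.
Alb, chr5:90460720-90460869, plus strand: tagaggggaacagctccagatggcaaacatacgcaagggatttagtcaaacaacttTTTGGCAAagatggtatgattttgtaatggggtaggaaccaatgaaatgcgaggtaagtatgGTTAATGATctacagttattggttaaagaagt
Apoa1, chr9:46228430-46228579, plus strand: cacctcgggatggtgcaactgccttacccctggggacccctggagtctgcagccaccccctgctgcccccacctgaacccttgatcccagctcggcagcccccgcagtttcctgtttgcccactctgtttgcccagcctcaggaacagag
Fabp1, chr6:71199677-71199826, plus strand: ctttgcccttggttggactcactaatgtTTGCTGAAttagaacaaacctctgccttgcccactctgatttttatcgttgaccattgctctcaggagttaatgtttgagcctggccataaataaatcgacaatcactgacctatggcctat
Fgb, chr3:83049864-83050013, minus strand: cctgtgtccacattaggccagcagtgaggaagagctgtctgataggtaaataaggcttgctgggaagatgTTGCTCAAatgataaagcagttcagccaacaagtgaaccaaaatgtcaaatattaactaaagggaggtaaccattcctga
Mup7, chr4:60070476-60070625, minus strand: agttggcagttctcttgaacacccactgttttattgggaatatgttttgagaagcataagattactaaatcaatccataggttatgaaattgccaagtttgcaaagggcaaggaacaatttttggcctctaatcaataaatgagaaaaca

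The C/EBP motif was in 13 of the 38 promoters (34.2%) and in 10.8% of all 32851 promoters of the same length. The genes with it were Ahsg, Alb, Apoa2, Apob, Fabp1, Fga, Fgb, Hpx, Serpina1a, Serpina1b, Serpina1d, Serpina1e and Serpinc1. The HNF1 motif was in 3 of 38 (7.89%), those of Alb, Fga and Gc, and in 0.801% of all promoters. Either of the HNF4 motifs CAAAGTCCA and CAAAGGTCA was in 1 of 38 (2.63%), that of Bhmt, against 0.95% of all. The PU.1 motif GAGGAAGT was in 0 of 38 and in 3.2% of all promoters, and AGAGGAA was in 2 of 38 (5.26%), those of Fetub and Mup10, and in 10.4%. A TATAAA box was in 5 of 38 (13.2%) and in 13.6% of all promoters. These are matches of letters in a short window on both strands, and neighbouring members share promoter sequence through duplication, so the 38 are not independent of each other.

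In the control mice the liver-type genes were low but present. Set aside Hp and Ass1, the other 45 genes held 9576, 3709 and 3113 counts in control mice 1, 2 and 3 and 689, 990 and 676 counts in aPU.1KO mice 1, 2 and 3. Scaled for depth, their summed level was 131.9, 162.4 and 123.5 CPM in the control mice and 35.0, 44.8 and 32.0 CPM in the aPU.1KO mice. The groups did not overlap, and the aPU.1KO mean was 0.268 of the control mean. With Hp and Ass1 included the ratio was 0.606, since Hp alone held most of the counts of the set. In bulk RNA of this kind, fewer cells of a type and less RNA per cell cannot be told apart.

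Gene by gene, 38 of the 47 were below every control library in every aPU.1KO library, and 0 were above. Among all 21529 genes with a count, 12.8% had the same order of libraries, and among the 10224 of them with a mean under 3 CPM, 11.8%. The 9 that overlapped between the groups were Apoc3, Serpina3k, Hp, Hpd, Ass1, Mup1, Mup2, Mup4 and Mup10. In the 3 control libraries 45, 42 and 40 of the 47 genes had at least 10 counts, and in the 3 aPU.1KO libraries 12, 12 and 13 had.

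**Figure D1:**
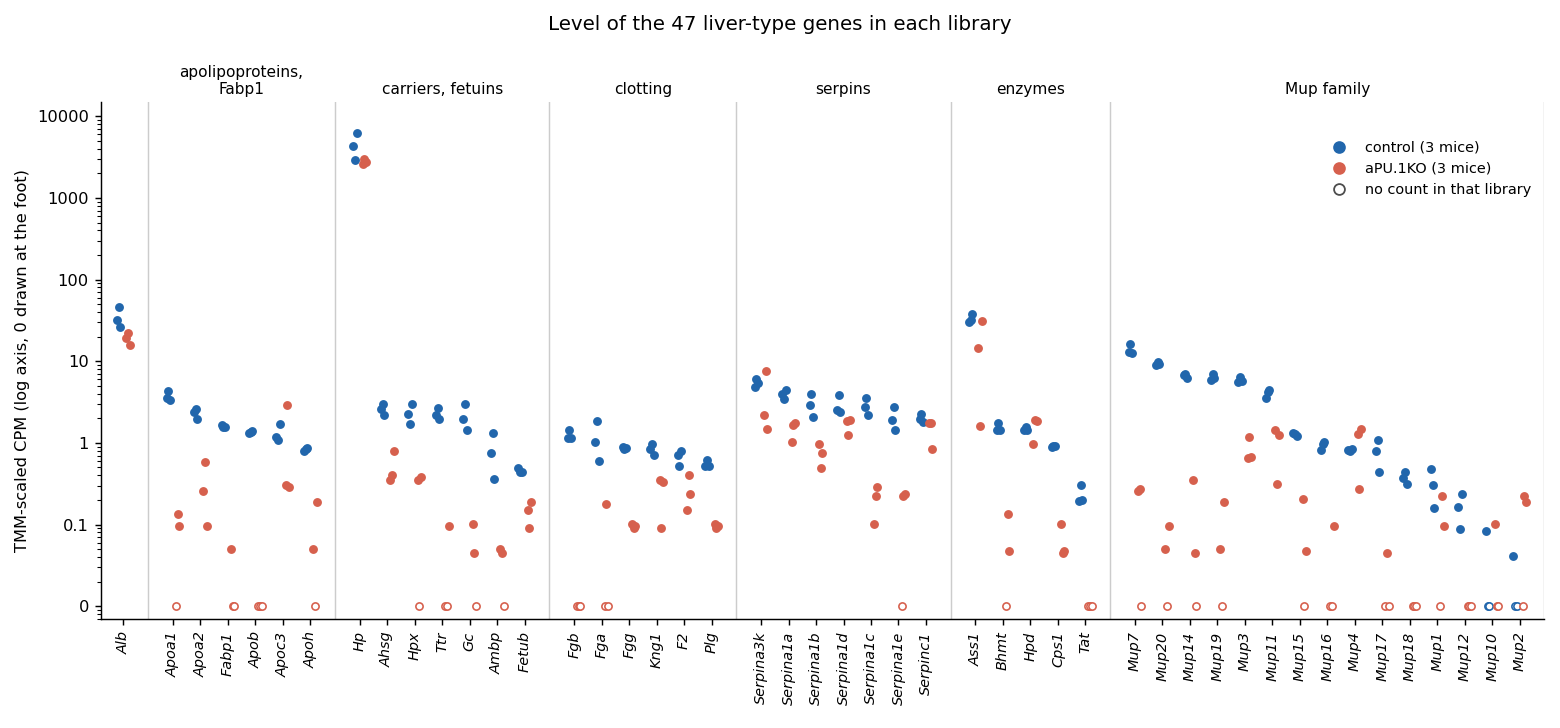
Level of each of the 47 genes in each of the 6 libraries, in TMM-scaled CPM on a log axis, with genes grouped by role and ordered by their control mean; open circles drawn at the foot are libraries with no count. Control points sit close together for most genes, and the aPU.1KO points lie below them for 38 of the 47, with Hp, Ass1, Apoc3, Serpina3k, Hpd and 4 Mup genes overlapping.

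The low-count filter passed 40 of the 47 genes, and Ambp, Tat, Mup1, Mup2, Mup10, Mup12 and Mup18 were left out of the fit. No overlap was found for 34 of the 40, beside 15.5% of all genes tested. The contrast chose the genes, so nothing is read from that count and no test of it is given.

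The genes differed widely in how much of the control level was left. Apob, Fgb, Tat, Mup12 and Mup18 had no count in any aPU.1KO library. Ttr, Fabp1, Gc, Ambp, Mup10, Mup16, Mup17 and Mup20 had between 1 and 3 counts over the 3 aPU.1KO libraries together. A further 11 had more counts but a mean under 10% of the control mean, 8 were at 10% to under 30%, 8 at 30% to under 60%, and 7 at 60% or more. The last group was Apoc3, Serpina3k, Serpinc1, Hp, Hpd, Mup2 and Mup4. The same dependence on single libraries held for other genes at so few counts. The log2 fold change was -5.50 for Apoa1 and -6.16 without aPU.1KO mouse 2, and for Ttr it was -5.99 and became -9.21 without aPU.1KO mouse 3. Without aPU.1KO mouse 1 it went from -6.32 to -8.71 for Fabp1 and from -5.34 to -6.30 for Gc. For Apoh it was -3.31 over all mice, -2.72 without aPU.1KO mouse 2 and -4.89 without aPU.1KO mouse 3, and for Hpx it was -3.24 and became -2.64 without aPU.1KO mouse 2. Fitted values of genes left with no count depend on the prior count and are no bound. Just inside the bound of 10% lay Apoh at 9.65% and just outside it Hpx at 10.6%.

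Albumin, the main protein of plasma, had one of the highest levels of the set per kilobase of exon, 14.8 CPM per kb in control mice, where Hp stood at 2816 and Ass1 at 13.8. Alb was at 32.1, 46.1 and 26.0 CPM in the control mice and at 19.4, 21.9 and 15.9 CPM in aPU.1KO mice. The groups did not overlap, but 54.8% of the control mean remained, with a log2 fold change of -0.86 (SE 0.23). Albumin thus kept a far larger part of its level than most other genes of the set. It took 24.4%, 28.4% and 21.0% of the counts of the 45 genes in control mice 1, 2 and 3, and 55.3%, 48.9% and 49.6% in aPU.1KO mice 1, 2 and 3. The exact 95% binomial intervals ran from 19.6% to 29.8% over the control mice and from 45.7% to 59.1% over the aPU.1KO mice, and cover counting error only. The other genes were picked for being near absent in the knockout, so a larger share of albumin there follows from the choice and is only a description.

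Among the genes of lipoproteins, Apoa1, the main protein of high-density lipoprotein, was at 3.54, 4.38 and 3.37 CPM in the control mice. It was at 0, 0.136 and 0.0947 CPM in the aPU.1KO mice, a mean 49.0-fold lower. Apoa2, a second protein of the same particle, was at 2.36, 2.63 and 1.98 CPM in control and at 0.254, 0.588 and 0.0947 CPM in aPU.1KO mice, 7.44-fold lower. Its log2 fold change of -2.86 became -3.72 without aPU.1KO mouse 2. Both genes were clear of overlap, with control mice within 1.5-fold of each other or less. Apob, the structural protein of very low-density lipoprotein, was even more uniform in control mice, at 1.31, 1.36 and 1.39 CPM, and had no count in any aPU.1KO mouse. Against a floor of 3 counts in each aPU.1KO library that is at least 9.45-fold lower.

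Fabp1, which binds fatty acids inside hepatocytes and enterocytes, was at 1.65, 1.58 and 1.55 CPM in control and had a single count in the 3 aPU.1KO libraries, 0.984% of the control level (95% counting interval 0.0248% to 5.55%). Apoh, a plasma glycoprotein that binds phospholipids, was at 0.785, 0.832 and 0.873 CPM in control mice and at 0.0508, 0 and 0.190 CPM in aPU.1KO mice. Apoc3, an inhibitor of lipoprotein lipase that lies next to Apoa1 on chromosome 9, went another way in 1 mouse. It was at 1.17, 1.09 and 1.71 CPM in control mice and at 0.305, 2.89 and 0.284 CPM in aPU.1KO mice. The value of aPU.1KO mouse 2 was the highest of all 6, while the other two were the lowest. Its log2 fold change was -0.17 over all mice and -2.15 without that mouse.

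The plasma carriers were mostly at a few counts or none in the knockout. Ttr, which carries thyroid hormone and retinol-binding protein, was at 2.20, 2.67 and 1.94 CPM in control mice and had 2 counts in aPU.1KO mouse 3 and none in the other two, 1.42% of the control level (95% counting interval 0.171% to 5.18%). Gc, the vitamin D binding protein, was at 1.94, 2.98 and 1.43 CPM in control mice and at 2.35% of that level in aPU.1KO mice (0.481% to 6.95%). Hemopexin (Hpx), which binds haem, was at 2.25, 1.71 and 2.97 CPM in control mice and at 0.356, 0 and 0.379 CPM in aPU.1KO mice. Ahsg, the gene of fetuin-A, was at 2.63, 2.98 and 2.22 CPM in control mice and at 0.356, 0.407 and 0.805 CPM in aPU.1KO mice, 4.99-fold lower. Its relative Fetub kept 31.6% of the control level, and Ambp, the precursor of alpha-1-microglobulin and bikunin, kept 4.08% with an interval of 0.487% to 15.2%.

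Haptoglobin, which binds free haemoglobin, stood apart from these carriers by its level. Hp was at 4385, 2924 and 6258 CPM in the control mice and at 2606, 3011 and 2756 CPM in the aPU.1KO mice. Control mouse 2 lay within the aPU.1KO range, so the groups overlapped, and 61.7% of the control mean remained. The 3 control values differed 2.14-fold among themselves, more than the aPU.1KO values did.

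All 6 clotting genes, chosen by the contrast, were lower in every aPU.1KO library, beside 12.8% of all genes with a count. The 3 fibrinogen chain genes lie together on chromosome 3 (Fgg, Fga and Fgb, between 83007724 and 83049863 in GRCm38), and their products form 1 protein. Fgb, whose promoter is printed above, was at 1.16, 1.45 and 1.15 CPM in control and had no count in aPU.1KO mice, at least 8.74-fold lower. Fga was at 1.03, 1.84 and 0.595 CPM in control mice and at 0, 0.181 and 0 CPM in aPU.1KO mice, so that mouse 2 held every count that was left. Fgg was at 0.881, 0.832 and 0.873 CPM in control mice and at 0.102, 0.0904 and 0.0947 CPM in aPU.1KO mice, or 2 counts in each library. Plasminogen (Plg), prothrombin (F2) and kininogen (Kng1) kept 17.4%, 39.4% and 30.9% of control means between 0.551 and 0.839 CPM.

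Serpins are inhibitors of proteases, and the 5 Serpina1 genes are the mouse copies of alpha-1-antitrypsin. Serpina1a was at 4.01, 3.41 and 4.48 CPM in control mice and at 1.02, 1.67 and 1.75 CPM in aPU.1KO mice. Serpina1b was at 2.92, 3.94 and 2.10 CPM in control mice and at 0.966, 0.497 and 0.758 CPM in aPU.1KO mice. The copies did not keep a like part of their level: the aPU.1KO mean was 37.3% of the control mean for Serpina1a, 24.8% for Serpina1b, 7.21% for Serpina1c, 56.6% for Serpina1d and 7.64% for Serpina1e.

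Serpina1c was at 2.75, 3.55 and 2.18 CPM in control mice and at 0.102, 0.226 and 0.284 CPM in aPU.1KO mice. Serpina1d was at 2.55, 3.85 and 2.42 CPM in control mice and at 1.83, 1.27 and 1.90 CPM in aPU.1KO mice. In control mice Serpina1c and Serpina1d were at similar levels per kilobase, 2.08 and 2.11 CPM per kb. Serpina1a was at 2.17, Serpina1b at 1.24 and Serpina1e at 1.25 CPM per kb. The coding sequences of the 5 Serpina1 genes were 96.3% to 98.5% identical over the 10 pairs. Reads can thus be assigned to the wrong copy, and the split between copies is uncertain. Serpina1c also shares exon sequence with a gene on the opposite strand.

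Serpina3k, an inhibitor of kallikreins, was at 4.85, 6.04 and 5.39 CPM in control mice and at 2.19, 7.50 and 1.47 CPM in aPU.1KO mice. As for Apoc3, aPU.1KO mouse 2 was the highest of all 6 and the other two the lowest, and the log2 fold change was -0.54 over all mice and -1.57 without that mouse. Part of an exon of Serpina3k is shared with Serpina3m on the same strand. Antithrombin (Serpinc1) was at 1.96, 2.28 and 1.79 CPM in control mice and at 1.73, 1.76 and 0.853 CPM in aPU.1KO mice, so that the groups touched closely without overlap. Its exons overlap those of Zbtb37 on the opposite strand over 2942 of 8546 bases, and without known strand use the reads of the pair cannot be told apart.

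The 5 enzymes did not move alike. Cps1, which begins the urea cycle, was at 0.881, 0.919 and 0.912 CPM in control mice and at 7.16% of their mean in aPU.1KO mice. Bhmt, which remethylates homocysteine, was at 1.43, 1.75 and 1.43 CPM in control mice and at 0, 0.136 and 0.0474 CPM in aPU.1KO mice, 3.97% of the control mean. Its log2 fold change of -4.51 became -5.76 without aPU.1KO mouse 2. Tat, which starts tyrosine breakdown, had between 5 and 14 counts per control library and none in aPU.1KO mice. Hpd, the next enzyme of that pathway, was at 1.42, 1.58 and 1.43 CPM in control mice and at 0.966, 1.90 and 1.85 CPM in aPU.1KO mice, 106.5% of the control mean. Ass1, a urea cycle enzyme that fat cells also use, was at 30.0, 32.0 and 38.0 CPM in control mice and at 14.6, 1.63 and 30.9 CPM in aPU.1KO mice. Its level in aPU.1KO mouse 2 stood far below the other 5, and that in aPU.1KO mouse 3 lay among the control values. Its log2 fold change was -1.08 over all mice and -2.05 without aPU.1KO mouse 3.

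The Mup genes took the largest part of the counts of the 45 genes in control mice, 36.9%, 34.4% and 39.6%, and 12.5%, 5.76% and 12.7% in aPU.1KO mice. All 15 lie on chromosome 4 between 59956804 and 62087342. Mup7 was at 13.1, 16.5 and 12.7 CPM in control mice and at 0.254, 0.271 and 0 CPM in aPU.1KO mice, 80.3-fold lower. Mup20, which encodes the male pheromone darcin, was at 8.88, 9.85 and 9.36 CPM in control mice. It had 3 counts over the 3 aPU.1KO libraries, 0.520% of the control level (95% counting interval 0.107% to 1.53%).

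Mup14 was at 6.78, 7.0 and 6.19 CPM in control mice and at 0.356, 0.0452 and 0 CPM in aPU.1KO mice, 49.8-fold lower. Mup19 was at 5.95, 7.0 and 6.27 CPM in control mice and at 0.0508, 0 and 0.190 CPM in aPU.1KO mice, 80.0-fold lower. Mup3 was at 5.58, 6.35 and 5.67 CPM in control mice and kept more, at 0.661, 1.18 and 0.663 CPM in aPU.1KO mice. Mup11 was at 3.51, 4.20 and 4.44 CPM in control mice and at 1.42, 0.316 and 1.23 CPM in aPU.1KO mice. The size of these changes rests on single libraries where few counts remain. The log2 fold change of Mup14 was -5.65 over all mice and -7.96 without aPU.1KO mouse 1, that of Mup19 was -6.26 over all mice, -5.67 without aPU.1KO mouse 2 and -7.84 without aPU.1KO mouse 3, and that of Mup20 was -7.50 and became -8.39 without aPU.1KO mouse 3. All 6 of these larger Mup genes were clear of overlap, and in the control mice each varied by less than 1.5-fold.

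Mup4, a Mup gene known from glands as well as liver, was at 0.826, 0.788 and 0.833 CPM in control mice and at 1.27, 0.271 and 1.47 CPM in aPU.1KO mice, with mice 1 and 3 above every control mouse and mouse 2 below. Mup11 was likewise lowest in aPU.1KO mouse 2. Mup15, Mup16, Mup17, Mup18 and Mup12 were lower in every aPU.1KO library, from control means between 0.164 and 1.28 CPM. Mup1 overlapped, with 35, 7 and 4 counts in the control mice and 0, 5 and 2 in the aPU.1KO mice. Mup2 and Mup10 had 12 and 8 counts over all 6 libraries, too few to read a direction.

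The coding sequences of the 15 Mup genes were 82.3% to 99.8% identical over 105 pairs, with 66 pairs at 98% or more. Bases 121 to 180 of the coding sequence, counted from the start codon in GRCm38, show how alike or unlike the copies are. Capitals mark bases that differ from Mup7.
Mup7: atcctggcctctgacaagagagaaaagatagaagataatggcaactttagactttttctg
Mup14: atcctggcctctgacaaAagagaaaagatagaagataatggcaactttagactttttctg
Mup11: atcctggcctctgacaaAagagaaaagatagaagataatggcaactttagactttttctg
Mup18: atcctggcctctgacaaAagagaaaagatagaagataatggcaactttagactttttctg
Mup3: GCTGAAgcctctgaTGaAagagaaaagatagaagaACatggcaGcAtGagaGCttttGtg
Mup20: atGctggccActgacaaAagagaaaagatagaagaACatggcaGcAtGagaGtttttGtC

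Mup14, Mup11 and Mup18 are the same in this window and differ from Mup7 at 1 base, whereas Mup20 differs at 11 and Mup3 at 17. The closest member to Mup3 was 87.0% identical over the whole coding sequence, to Mup4 89.9% and to Mup20 91.3%. Among the members, these 3 genes are thus the least open to exchange of reads. The pseudogene Mup-ps21 and most Mup genes outside the set were not compared, so exchange of reads with them is unknown. Of the 3 genes, Mup20 was nearly gone in aPU.1KO mice, Mup3 kept 14.2% of its control mean and Mup4 overlapped. For the other members the level of a single copy is uncertain. Summed over the Mup genes of the set, RNA was at 48.7, 55.8 and 48.9 CPM in control mice and at 4.37, 2.58 and 4.07 CPM in aPU.1KO mice. The sum leaves out Mup22 and the pseudogene Mup-ps21, which lie outside the set. In aPU.1KO mice 1, 2 and 3 Mup22 was at 1.17, 2.40 and 0.237 CPM. Mup-ps21, at 14.4, 2.85 and 16.3 CPM, was above the sum in each of them. With the Mup genes taken as 1 value and the Serpina1 genes as 1 value, 24 of 29 values were lower in every aPU.1KO mouse, beside 12.8% of all genes with a count, and the contrast chose them.

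**Figure D2:**
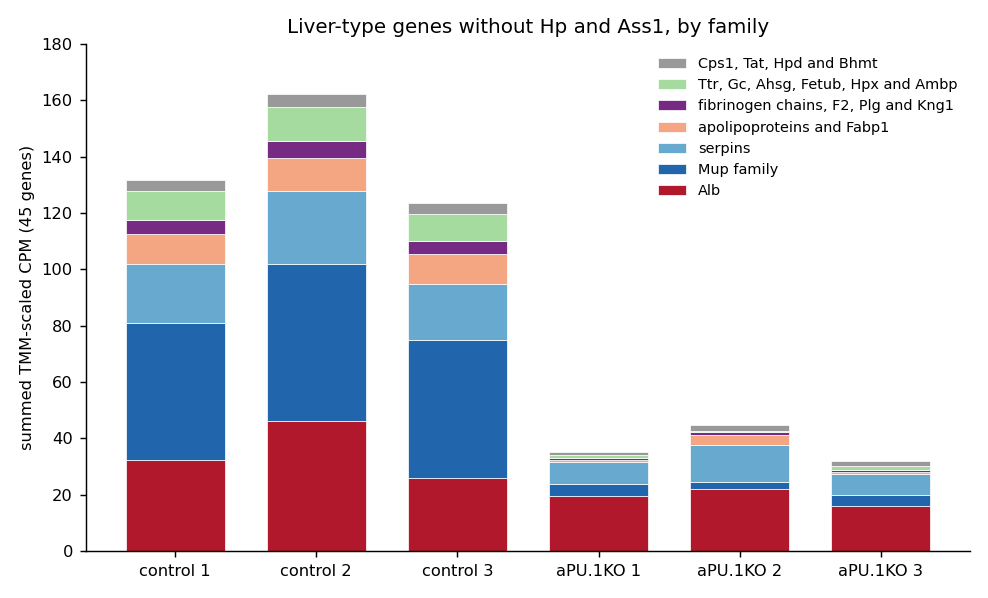
Summed level of 45 liver-type genes (all but Hp and Ass1) in each library, in TMM-scaled CPM, stacked by family. The Mup genes of the set make up the largest block in the 3 control mice (48.7, 55.8 and 48.9 CPM). Their block shrinks to 4.37, 2.58 and 4.07 CPM in the aPU.1KO mice, where albumin is the largest.

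The makeup of the set was compared among the control mice, which does not use the difference between groups. The shares of Alb and of the Mup genes, given above, varied beyond counting error, with exact 95% intervals of 26.9% to 29.8% for Alb in control mouse 2 and of 19.6% to 22.5% in control mouse 3. The Mup share was 32.8% to 35.9% in control mouse 2 and 37.9% to 41.3% in control mouse 3 by the same intervals. Serpins held 15.9%, 15.9% and 16%, apolipoproteins and Fabp1 held 8.20%, 7.31% and 8.80%, and the clotting genes 3.90%, 3.83% and 3.76%. The Spearman correlation of the 45 levels was 0.974, 0.981 and 0.935 between pairs of control mice, 0.659 to 0.717 between pairs of aPU.1KO mice, and 0.312 to 0.523 between a control and an aPU.1KO mouse. The values between groups depend on how the genes were picked and are not a result. These describe 45 genes that share libraries and differ in abundance, and the aPU.1KO levels rest on few counts.

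The control mice were also compared in level, over the 38 genes other than Hp and Ass1 with at least 10 counts in every control library. That limit keeps the genes by their level in the group where they are high, so the values are a description. The highest control mouse was at a median of 1.27 times the lowest (range 1.04 to 3.09). For all 8500 genes with that count limit and the same range of control mean the median was 1.22. Under 5 CPM it was 1.30 for 31 of the liver-type genes and 1.42 for all 2870 genes of that range.

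Macrophages depend on PU.1 and can be carried along in this fraction. The 15 macrophage markers summed to 1830, 548.3 and 1766 CPM in control mice and to 381.5, 279.2 and 366.2 CPM in aPU.1KO mice, and 12 of the 15 were lower in every aPU.1KO mouse, beside 12.8% of all genes with a count. edgeR called 1 of the 15 lower, Mrc1 (log2 fold change -1.69, adjusted p = 0.0389), and DESeq2 called 13 lower. Of all genes edgeR called 0.18% lower and DESeq2 7.48%. Lyz2 was at 635.7, 142.8 and 652.9 CPM in control and at 134.2, 62.1 and 102.9 CPM in aPU.1KO mice. Control mouse 2 thus had far less macrophage RNA than the other control mice, while its liver-type sum of 162.4 CPM was the highest of all. The median ratio of highest to lowest control mouse was 3.94 for the macrophage markers and 1.16 for the adipocyte markers. It was 1.22 for all genes in the same range of control mean as the liver-type genes. The part of macrophages in the levels of the liver-type genes was not tested. The 8 markers listed for Kupffer cells, the resident macrophages of the liver, summed to 221.8, 237.9 and 172.2 CPM in control mice and to 96.3, 178.2 and 121.6 CPM in aPU.1KO mice, most of it Cdh5, which endothelial cells make in fat as well. Of the 4 tested edgeR called 0, with 2 lower at a p under 0.05 before adjustment, and DESeq2 called 1 lower. Clec4f, the marker most particular to Kupffer cells, had 1 count over the 6 libraries. The 12 markers of stellate, bile duct and sinusoid cells of the liver summed to 285.4, 333.2 and 233.5 CPM in control mice and to 141.3, 217.0 and 190.6 CPM in aPU.1KO mice, most of it Rgs5, which is also known from pericytes. Of the 7 tested edgeR called 0, with 1 lower and 1 higher at a p under 0.05 before adjustment, and DESeq2 called 1 lower.

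**Figure D3:**
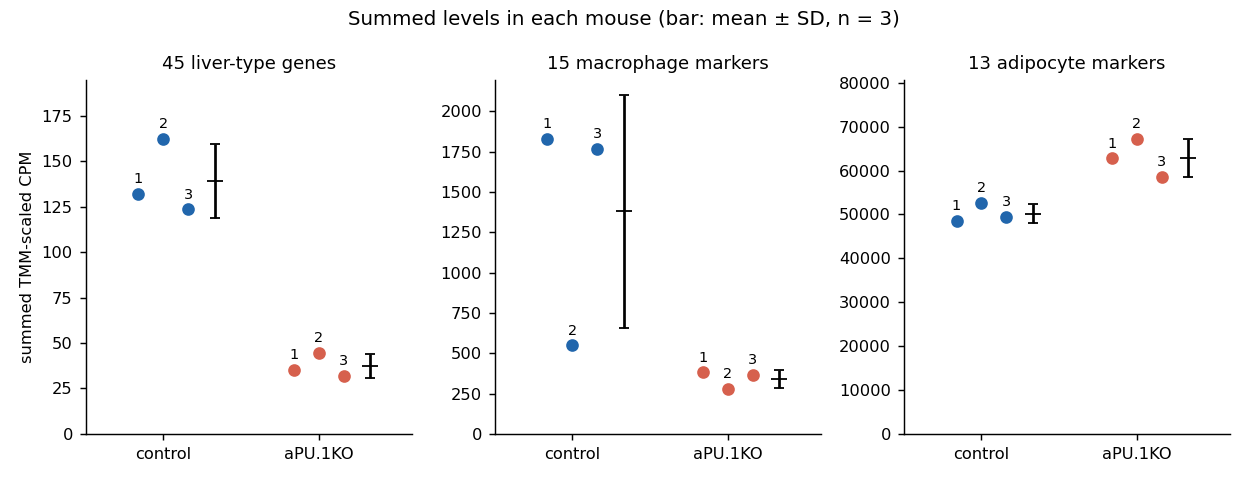
Summed TMM-scaled CPM in each mouse for 45 liver-type genes, 15 macrophage markers and 13 adipocyte markers, each panel with its own axis from 0; points are mice with their numbers and bars are the mean ± SD of 3 mice. Control mouse 2 is highest for the liver-type genes at 162.4 CPM and lowest of the control mice for the macrophage markers at 548.3 CPM.

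Markers of other organs were also summed. Of 16 epididymis markers 12 had no count in any library, and their sum stayed between 2.85 and 4.32 CPM, with Adam28 the highest. Testis, kidney and intestine markers summed to at most 1.13 CPM in any library. The 13 pancreas markers summed to between 21.4 and 69.2 CPM, nearly all of it Cela1, and edgeR called 0 genes of these 5 lists, with 1 kidney gene, Slc12a3, higher at a p under 0.05 before adjustment; DESeq2 called 0 as well. The 6 skeletal muscle markers summed to 37.5, 50.6 and 39.5 CPM in control mice and to 130, 43.4 and 35.9 CPM in aPU.1KO mice, with aPU.1KO mouse 1 the highest, and neither tool called any of them. The 10 mesothelium markers summed to between 5.55 and 23.6 CPM, with no gene called by either tool. Erythroid RNA, a sign of blood, summed to 619.4, 586.5 and 785.6 CPM in control mice and to 351.7, 1144 and 882.6 CPM in aPU.1KO mice, so that the groups overlapped. The part of any of these cells in the levels of the liver-type genes was not tested.

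The rest of the hepatocyte programme was looked at in a list of 184 further genes of plasma proteins, lipoproteins, metabolism, bile acids and drug breakdown, none of them a member. The list was drawn up with earlier results of these data known, so its counts are a description. Of the 184 genes 178 had a count and 77 passed the filter. edgeR called 1 lower, a call lost in each fit that left out a mouse other than control mouse 2, and 0 higher. With no adjustment, at a p under 0.05, it called 19 of the 77 lower and 8 higher, where 13.7% of all genes tested were lower and 11.9% higher. DESeq2, which gave an adjusted p for 143 of the list, called 31 of these lower and 4 higher, where 7.48% of all genes were lower and 3.51% higher. The median log2 fold change of the 77 was -0.22, beside 0.01 over all genes tested.

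Most of these further genes that were lower were low in abundance, as the members were. Of the 142 with a mean under 3 CPM, 70 were below every control mouse in every aPU.1KO mouse and 3 above, where 11.8% of all genes in that range were below and 4.87% above. Of the 36 at 3 CPM or more, 4 were below and 8 above, where 13.8% of all genes at that level were below and 19.1% above. The split at 3 CPM was chosen after the data were seen, and the list with earlier results of these data known. The counts are a description and no independent support.

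**Figure D4:**
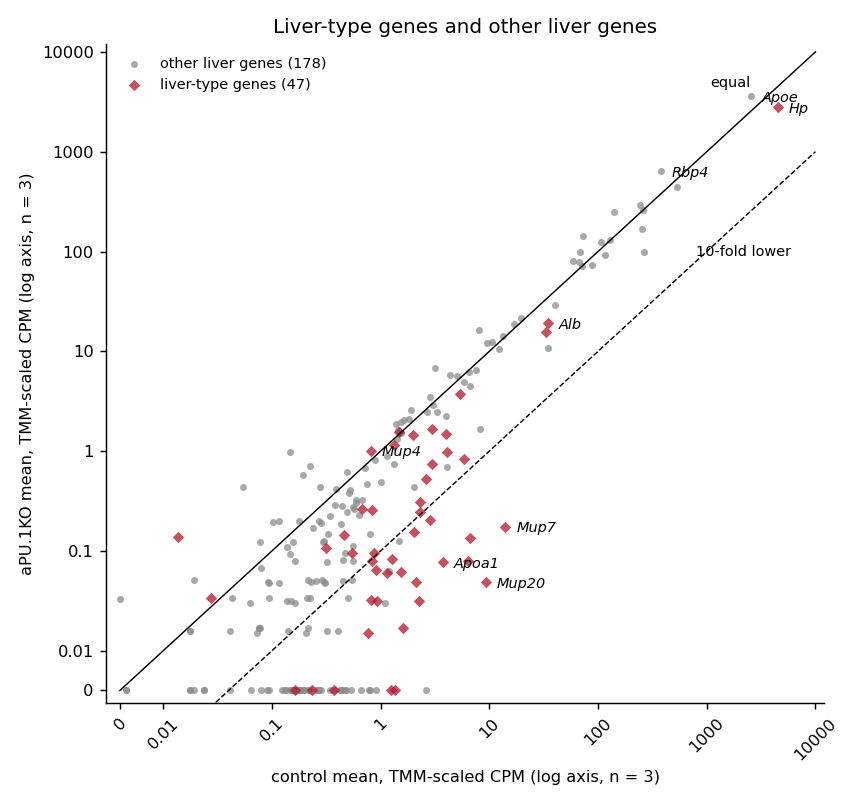
Mean level in control mice (x) and in aPU.1KO mice (y) of the 47 liver-type genes (diamonds) and of 178 other liver genes with a count (circles), TMM-scaled CPM on log axes with 0 drawn at the edge, n = 3 mice per group; the solid line marks equal levels and the dashed line a 10-fold lower level. Hp and Alb lie between the lines, and genes far below the dashed line, such as Mup7, Mup20 and Apoa1, are at low levels in control mice.

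Among the abundant genes of the list were some that fat cells are known to make. Rbp4, the plasma retinol carrier, was at 341.6, 509.8 and 282.2 CPM in control mice and at 661.3, 664.2 and 589.0 CPM in aPU.1KO mice (log2 fold change 0.76, adjusted p = 0.102 by edgeR and 0.0148 by DESeq2). Apoe was at 2384, 2970 and 2232 CPM in control mice and at 3530, 4119 and 3157 CPM in aPU.1KO mice (log2 fold change 0.51, adjusted p = 0.130 by edgeR and 0.0283 by DESeq2). Serpina3n, a relative of Serpina3k, was at 504.6, 511.8 and 593.1 CPM in control mice and at 435.9, 422.6 and 481.6 CPM in aPU.1KO mice (log2 fold change -0.26, adjusted p = 0.176 by edgeR). Orm1, an acute phase glycoprotein, had a log2 fold change of 0.28, and Pltp, which moves phospholipids between lipoproteins, one of -1.42, neither past the threshold of edgeR (adjusted p = 0.116 for both). DESeq2 called Pltp (adjusted p = 0.00782) but not Orm1 (0.0701).

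By role, the 35 bile acid and drug metabolism genes held 8 that were tested, with a median log2 fold change of -1.37, and 24 of the 35 were below every control mouse in every aPU.1KO mouse. In the 39 amino acid, urea and sugar metabolism genes it was 16, in the 39 plasma protein genes 15 and in the 20 clotting genes 9. It was 4 in the 15 lipoprotein genes, 4 in the 18 serpins and 2 in the 18 lipocalin genes. The counts above every control mouse were 1, 2, 2, 0, 2, 1 and 3 in the same order of lists. Of all genes with a count 12.8% were below and 12.4% above. Of the most abundant genes in these lists, Hsd11b1, which regenerates glucocorticoid, was at 136.6, 150.5 and 131.2 CPM in control mice and at 198.9, 365.4 and 183.8 CPM in aPU.1KO mice (adjusted p = 0.116 by edgeR and 0.0233 by DESeq2). Fah and Sardh, enzymes of tyrosine and sarcosine breakdown, had log2 fold changes of 0.23 and 0.01, and Pros1, the clotting cofactor protein S, one of -0.26. Serpina3c and Pon3 were both at 0.03. Orm3, Agt and Slc38a3 were at 1.03, 0.98 and 1.11, and Vtn, Serpina3m, Igfals, Gys2 and Lrg1 at -0.22, -0.22, -0.33, -0.44 and -0.58. F7, a clotting factor known from liver and macrophages, was at -2.32 (adjusted p = 0.0768 by edgeR and 8.29e-05 by DESeq2) and Tfr2, an iron sensor, at -1.67 (adjusted p = 0.131 by edgeR). Over all mice none of these genes passed the threshold of edgeR, and of them DESeq2 called Hsd11b1 and F7. Leaving out control mouse 2 raised the share of all genes called by edgeR from 0.237% to 8.34%. In that fit it called Orm3 (log2 fold change 1.64, adjusted p = 0.0384), Agt (1.62, 0.0424), Lrg1 (-0.85, 0.0279) and F7 (-2.67, 0.00928), and of genes described before it Rbp4 (1.02, 0.010) and Pltp (-1.76, 0.0324), which DESeq2 called over all mice.

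The transcription factors known to drive hepatocyte genes were mostly near 0. Foxa1 had no count in any library. Hnf4a was at 0.289, 0.438 and 0.159 CPM in control mice and at 0, 0.0452 and 0.190 CPM in aPU.1KO mice. Foxa2 and Foxa3 had at most 0.0947 CPM in any library. At the depth of these libraries a level near 0 does not show absence. Of the 20 factors listed 18 had a count, with 3 below every control mouse in every aPU.1KO mouse and 3 above. Of all genes with a count 12.8% were below and 12.4% above. Among the 7 tested edgeR called 0, with 1 lower and 2 higher at a p under 0.05 before adjustment. DESeq2 called 1 higher, Cebpa. Cebpa, which fat cells and hepatocytes both use, was at 656.9, 700.3 and 690.6 CPM in control and at 851.6, 922.3 and 854.8 CPM in aPU.1KO mice (log2 fold change 0.36, SE 0.09, adjusted p = 0.0868 by edgeR). The most abundant of the others were Cebpb, with a log2 fold change of 0.34, and Tbx3, with one of -0.32.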

How the data were processed

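The data are 6 libraries of adipocyte fraction RNA, from 3 control and 3 aPU.1KO mice. The authors quantified reads with Salmon and deposited estimated counts, summed from transcripts to genes as whole numbers without normalization. The submitters' processing notes name Salmon, FastQC and GRCm38; the Salmon version and annotation are not given in the sources used here. Of 35122 genes, 35031 were matched to a symbol (GENCODE M21), and the unmatched genes held 0.0367% of counts. No value column was left unmapped.

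CPM were scaled with TMM. The test was the quasi-likelihood test of edgeR 4.0.16 in R 4.3.3 (filterByExpr, glmQLFit, glmQLFTest, Benjamini-Hochberg over all 13925 genes tested, adjusted p under 0.05), and log2 fold changes are aPU.1KO over control. The edgeR fit was tested on simulated counts with the same dispersion for every gene and no outlying mouse. That setting is simpler than these data, so it does not show how stable the calls are. Alternatives were RLE scaling, no filter, DESeq2 1.42.0, leaving out each mouse, and control library 1 thinned to the median depth. Intervals are exact, at 95%, and cover counting error only; the floor is 3 counts per library. Promoters are from RefSeq. Coding sequences were aligned in pairs with Biopython 1.88.

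The members and lists were chosen with earlier results of these data known. Members over 300 counts are given by library, the others by range, class or, where values of them are given, as chosen after their values were seen. Other liver lists are named by the 3 genes with the highest mean CPM, and lists of other cells, in place of that rule, by their sums and a few markers chosen after their values were seen. A few genes of the lists are left unreported. Proteins were not compared; coding sequences were used in their place.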

Additional observations from a re-analysis of the deposited data

How the results depend on the processing

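The study's text says that littermate controls were used. No paired analysis was possible because the labels do not give the litter of each mouse. The ratio of the summed CPM (aPU.1KO over control) of 0.606 became 0.268 without Hp and Ass1, which hold most of the counts, and lay between 0.519 and 0.742 with each mouse left out. The number of members below every control mouse stayed at 38 to 42 with each mouse left out, and was 24 of 29 values with the Mup genes and the Serpina1 genes summed, where fewer values are compared. The count of other liver genes called lower was 1, 4 without the filter, 31 with DESeq2, and 0 to 16 with each mouse left out, the 16 without control mouse 2. Their median log2 fold change of -0.22 was -1.20 without the filter and -1.07 with DESeq2, where more low genes are included, and -0.41 to -0.19 with each mouse left out. For the hepatocyte transcription factors the count of 0 became 1 with DESeq2 and 0 to 1 with each mouse left out, the 1 without control mouse 2. Over all genes the count of 33 was 146 without the filter, 1833 with DESeq2, and 0 (without control mouse 1) to 1193 (without control mouse 2) with each mouse left out. The cause was not tested.

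Log2 fold changes near 0 turned sign when a mouse was left out. They ranged from -2.15 to 0.29 for Apoc3, -0.063 to 0.338 for Hpd, -0.097 to 0.741 for Mup4, -0.026 to 0.076 for Serpina3c, -0.796 to 0.039 for Vtn, -0.047 to 0.116 for Pon3 and -0.042 to 0.045 for Sardh. Sardh was also at -0.006 with RLE scaling, -0.010 without the filter and -0.005 with DESeq2. With 40 or more of the 47 members at 10 counts or more in each control library and 12 or 13 in each aPU.1KO library, depth limits what can be said of the remaining levels.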

Other observations

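Genes with the on-off pattern of the liver-type genes were counted over the whole table, by a limit chosen after the data were seen. Of 13521 genes with at least 10 counts in every control library, 34 had 3 or fewer in every aPU.1KO library. Of the 34, 13 were liver-type members (among 40 members with 10 counts in every control library), 10 were other liver genes (among 72), and 11 were on neither list. The members were picked for such a pattern, so their number restates the choice. The list of other liver genes was drawn up with earlier results of these data known. Among the 10 other liver genes were Apoa5, Azgp1, Ces3a, Cyp3a11, Gnmt, Mat1a, Mug1, Pzp and Slco1b2. Mat1a, which makes S-adenosylmethionine in adult liver, was at 0.826, 1.18 and 0.714 CPM in control mice and had no count in aPU.1KO mice, and Cyp3a11, a drug-metabolising cytochrome, was at 0.578, 0.657 and 0.754 CPM in control mice and had none either.

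The 11 on neither list included Rgn and Ces1c, which are also known from liver. Rgn, the calcium-binding protein regucalcin, was at 0.702, 1.01 and 0.635 CPM in control mice and at 6.39% of that level in aPU.1KO mice (95% counting interval 1.29% to 19.3%). Ces1c, a plasma carboxylesterase, was at 0.785, 1.27 and 0.516 CPM in control mice and had no count in aPU.1KO mice. Of the others, the chemokine receptor gene Ccr7 was at 0.634, 0.525 and 0.595 CPM and the chemokine gene Ccl19 at 0.799, 0.482 and 0.992 CPM in control mice, both with at most 0.142 CPM in aPU.1KO mice.

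A pair of Mup loci outside the set was also measured, and the difference between them was not tested. Mup22, 99.8% identical to Mup18 in coding sequence, was at 12.7, 13.3 and 14.1 CPM in control mice and at 1.17, 2.40 and 0.237 CPM in aPU.1KO mice. The pseudogene Mup-ps21 was at 9.39, 11.8 and 8.73 CPM in control mice and at 14.4, 2.85 and 16.3 CPM in aPU.1KO mice. It was lowest in aPU.1KO mouse 2, as were Mup4, Mup11 and Ass1, while Apoc3 and Serpina3k were highest in aPU.1KO mouse 2. These libraries were picked out after their values were seen, and the cause was not tested.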
